A study of Mus musculus with 10 samples.

Results

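Butyrylation of histone H4 at lysine 8 (H4K8bu) was set against butyrylation at lysine 5 (H4K5bu), first in mouse spermatocytes and then in round spermatids. The members were all islands of the 4 butyryl lists on chromosomes 1 to 19, an island being a stretch that the peak caller SICER called enriched over input. These were 152258 of the 301484 islands that the 8 lists of the study held over all chromosomes. The 4 acetyl lists held 142950 islands on chromosomes 1 to 19. Spermatocytes had 40695 H4K8bu and 37578 H4K5bu islands, and round spermatids had 33800 H4K8bu and 40185 H4K5bu islands. No measured value other than the call itself chose them.

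The study sequenced nucleosomal DNA after chromatin immunoprecipitation (ChIP-seq) from testis cells of Oncins France 1 mice, fractionated into spermatocytes and round spermatids. About 100 ug of mononucleosomes and 5 ug of rabbit antibody against H4K8bu, H4K5bu, H4K8ac or H4K5ac entered each precipitation, in a buffer that contained sodium butyrate. An input library, taken before precipitation, was sequenced for each stage and served all lists of that stage. There was 1 library per mark and stage and no treatment or mutant, the labels name no age and no number of animals, and no value of these files measures the purity of the fractions or the specificity of the antibodies. No test between libraries was possible. The intervals given are 95% intervals and cover no variation between preparations. Those for folds and read ratios cover read counting. Those for shares and medians take the islands or regions of a library as independent.

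The tail of histone H4 carries lysines whose positive charge is removed by acetylation. Butyrylation adds a longer acyl chain to the same side chain, so that a given lysine can hold an acetyl or a butyryl group but not both at once. Spermatocytes are male germ cells in meiosis, and round spermatids are the haploid cells that follow, before most of their histones are replaced. Brdt, a bromodomain protein of the testis, binds H4 tails acetylated at both K5 and K8.

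The lists held similar numbers of ChIP reads in their islands, a count that depends on the calls as well as on depth. The islands held 9101516 ChIP reads for H4K8bu and 7937840 for H4K5bu in spermatocytes, and 8201772 for H4K8bu and 9080192 for H4K5bu in round spermatids. They covered 159 Mb and 153 Mb in spermatocytes and 182 Mb for either mark in round spermatids. The fold of an island is its ChIP reads over its input reads times a constant for library size, and its median was 4.38 for H4K8bu and 4.01 for H4K5bu in spermatocytes and 3.50 and 3.48 in round spermatids.

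Most places with butyryl at one lysine were also called at the other, in both stages, but the excess of private islands lay with K8 in spermatocytes and with K5 in round spermatids. An island was shared if at least 1 bp of it lay in an island of the other residue in the same stage, and private if not. In spermatocytes 81.4% of H4K8bu islands (interval 81.1 to 81.8%) and 89.9% of H4K5bu islands (89.6 to 90.2%) were shared. In round spermatids the shares were 93.9% of H4K8bu islands (93.7 to 94.2%) and 81.5% of H4K5bu islands (81.1 to 81.9%). Private islands thus numbered 7554 for H4K8bu and 3785 for H4K5bu in spermatocytes, and 2046 for H4K8bu and 7432 for H4K5bu in round spermatids.

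The order of these shares follows the lengths of the lists in each stage. With the lists brought to 33800 islands each, keeping those of highest fold, the shares were 85.2% for H4K8bu and 87.1% for H4K5bu in spermatocytes and 85.1% and 86.6% in round spermatids. The gap between residues was then under 2 percentage points in each stage, and in round spermatids it pointed the other way. Counted in bases, 75.1% of the H4K8bu bases and 77.7% of the H4K5bu bases were shared in spermatocytes, and 81.7% and 81.5% in round spermatids.

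**Figure D1:**
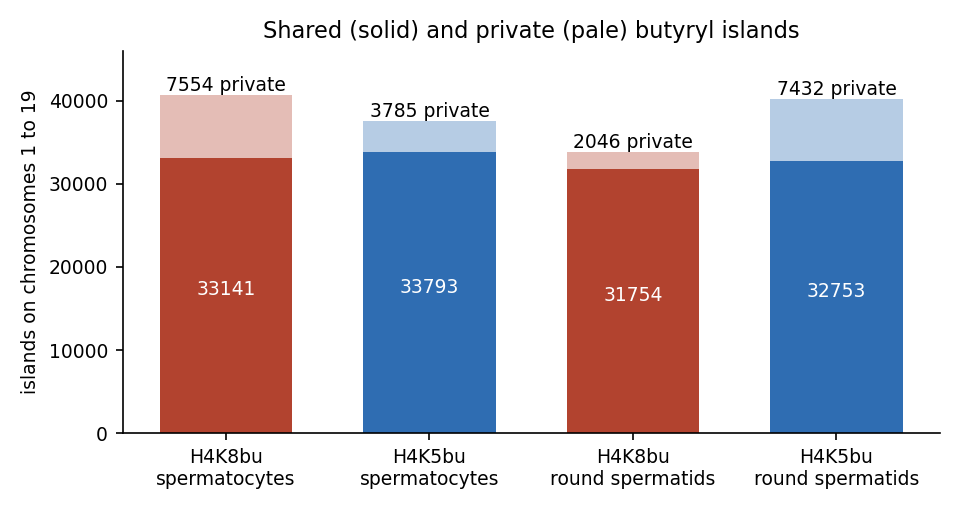
Each bar is a butyryl list, with islands on chromosomes 1 to 19 on the vertical axis; the solid section is shared with the list of the other residue in the same stage and the pale section is private. Private islands are most numerous for H4K8bu in spermatocytes (7554) and for H4K5bu in round spermatids (7432), and every list is mostly shared.

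Private islands were narrower and weaker than shared ones, in all 4 lists. In spermatocytes private H4K8bu islands had a median width of 2200 bp, 80 ChIP reads and a fold of 2.87, against 3200 bp, 186 reads and 4.92 for shared ones. Private H4K5bu islands had 2200 bp, 74 reads and 2.51, against 3400 bp, 160 reads and 4.25. The round spermatid medians were 2800 bp, 80 reads and 2.48 for private H4K8bu islands and 1800 bp, 60 reads and 2.60 for private H4K5bu islands. The median input reads per kb were somewhat higher in private than in shared islands, in all 4 lists. They were 15.5 against 14.0 for H4K8bu and 16.7 against 14.1 for H4K5bu in spermatocytes. In round spermatids they were 18.2 against 17.4 and 18.7 against 17.5. Because an island is private only if the other list misses it, the lower fold is a description and not a separate result.

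Private islands therefore held few of the reads. They took 7.44% of the H4K8bu and 4.16% of the H4K5bu island reads in spermatocytes, and 2.13% and 5.40% in round spermatids. From the lowest to the highest of 4 equal classes of islands by fold, the shared percentage went from 57.1 to 97.3 for H4K8bu and from 74.3 to 99.1 for H4K5bu in spermatocytes. In round spermatids it went from 84.4 to 99.0 for H4K8bu and from 60.4 to 96.3 for H4K5bu. Among the 10% of islands with the highest fold, 77 H4K8bu and 27 H4K5bu islands were private in spermatocytes, and 25 and 139 in round spermatids. A strongly enriched island of one residue with no called island of the other was thus uncommon in either stage.

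Private islands did not sit at the rims of shared ones as a rule. The median distance from a private island to the nearest island of the other residue was 18100 bp for H4K8bu and 11000 bp for H4K5bu in spermatocytes, and 17600 bp and 13400 bp in round spermatids. Of the 19 chromosomes, none held far more private islands than the rest. The private percentage ran from 16.8 (chromosome 19) to 19.7 (chromosome 14) for H4K8bu and from 8.36 (chromosome 11) to 12.4 (chromosome 9) for H4K5bu in spermatocytes. It ran from 4.49 (chromosome 16) to 7.14 (chromosome 6) and from 17.1 (chromosome 7) to 20.3 (chromosome 12) in round spermatids.

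Private H4K8bu islands more often carried H4K5ac than private H4K5bu islands did, in both stages. H4K5ac was called in 72.3% (71.3 to 73.3%) of private H4K8bu islands and 39.8% (38.2 to 41.3%) of private H4K5bu islands in spermatocytes. For round spermatids they were 62.8% (60.6 to 64.9%) and 39.7% (38.6 to 40.8%). Shared islands carried H4K5ac in 95.9 to 97.8% of cases, whichever residue was counted. The intervals of the residues do not overlap in either stage. They take the islands of a single library as independent, so this is a description and no test between residues. The gap also depends on the lengths of the lists, in both stages. With lists of equal length the shares were 81.5% for H4K8bu and 65.3% for H4K5bu in spermatocytes, and 77.4% and 46.3% in round spermatids.

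The same order held among islands of like strength. For private islands with a fold of 2 to 3 and a width of 1400 to 3000 bp, a comparison chosen after the values were seen, H4K5ac was called in 63.4% of 2080 H4K8bu islands (61.2 to 65.4%) and 41.4% of 1279 H4K5bu islands (38.6 to 44.1%) in spermatocytes. In round spermatids it was called in 60.1% of 629 (56.1 to 64.0%) and 38.2% of 2801 (36.4 to 40.0%). Shared islands of that fold and width carried it in 87.9 to 91.7% of cases, more than private islands of either residue.

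H4K8ac separated the residues by less. It was called in 29.2% of private H4K8bu and 20.3% of private H4K5bu islands in spermatocytes, and in 11.8% and 9.73% in round spermatids. At a fold of 2 to 3 and a width of 1400 to 3000 bp the spermatocyte shares were 21.5% and 21.8%, and the round spermatid shares 12.7% and 8.07%. Neither acetyl mark was called in 24.2% of private H4K8bu and 52.5% of private H4K5bu islands of spermatocytes, and in 34.9% and 57.3% of those of round spermatids. The acetyl lists use the same input library as the butyryl lists of their stage.

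**Figure D2:**
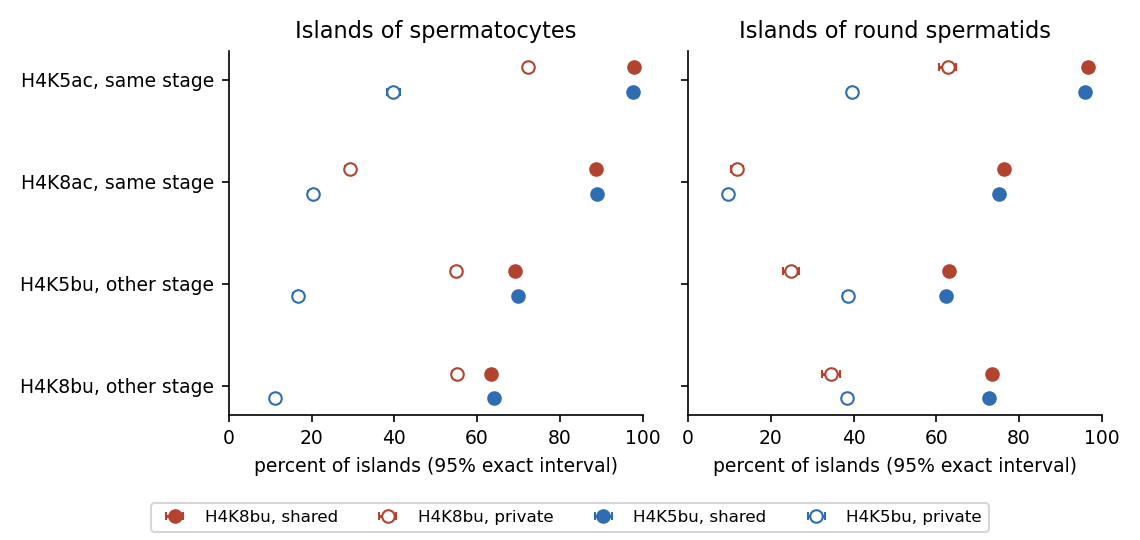
Percent of shared (filled) and private (open) islands of each residue that overlap, by at least 1 bp, an acetyl island of the same stage or a butyryl island of the other stage, with 95% exact binomial intervals. Open H4K8bu points lie to the right of open H4K5bu points for H4K5ac in both stages, 72.3% against 39.8% and 62.8% against 39.7%.

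Private H4K5bu islands of spermatocytes more often met no butyryl mark in the other stage than private H4K8bu islands did. Of the 7554 private H4K8bu islands of spermatocytes, 51.4% overlapped islands of both residues in round spermatids, 3.73% H4K8bu alone, 3.44% H4K5bu alone and 41.4% (40.3 to 42.5%) neither. Of the 3785 private H4K5bu islands, 9.30% overlapped both, 7.48% H4K5bu alone, 1.74% H4K8bu alone and 81.5% (80.2 to 82.7%) neither. Among shared islands of spermatocytes, 28.5 to 29.1% met neither. These shares depended on the islands compared. With lists of equal length neither mark was met by 49.0% of private H4K8bu and 67.4% of private H4K5bu islands, and among private islands with at least 100 ChIP reads by 16.1% and 70.6%.

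In round spermatids the residues differed less, and in the other direction. Of the 2046 private H4K8bu islands, 22.8% overlapped both residues in spermatocytes, 11.7% H4K8bu alone, 1.96% H4K5bu alone and 63.5% neither. Of the 7432 private H4K5bu islands, 34.3% overlapped both, 4.28% H4K5bu alone, 4.18% H4K8bu alone and 57.2% neither. With lists of equal length, 61.5% of private H4K8bu and 49.8% of private H4K5bu islands met neither.

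Few places were private to the same residue in both stages, but private islands were the minority of each list. In spermatocytes 7554 of 40695 H4K8bu and 3785 of 37578 H4K5bu islands were private. In round spermatids 2046 of 33800 and 7432 of 40185 were. The shares that follow are bounded by these numbers and are not given here for lists of equal length. Of the private H4K8bu islands of spermatocytes, 3.03% overlapped an island private to H4K8bu in round spermatids and 3.44% an island private to H4K5bu there. Of the private H4K8bu islands of round spermatids, 11.2% overlapped one private to H4K8bu and 1.61% one private to H4K5bu in spermatocytes. For private H4K5bu islands of spermatocytes the shares were 6.29% for H4K5bu and 0.872% for H4K8bu in round spermatids. For private H4K5bu islands of round spermatids they were 3.26% and 3.50% in spermatocytes.

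In spermatocytes the private islands with the most ChIP reads, among those with a fold of at least 3, met both residues in round spermatids, whichever residue they were private to. Positions are in mm9, and genes at them were not looked up because no annotation of that build was used here. In spermatocytes the leading private H4K8bu island, chr17:28640801-28652600, held 419 ChIP and 154 input reads, a fold of 3.22 (2.67 to 3.90). In round spermatids both residues were called there, at folds of 3.72 for H4K8bu and 3.42 for H4K5bu, and H4K5ac was called in spermatocytes at 5.04 with no H4K8ac island. The next, chr4:141166201-141176200, had 409 ChIP reads and a fold of 3.94, and in round spermatids 5.86 for H4K8bu and 5.16 for H4K5bu. Its H4K5ac fold was 5.36 in spermatocytes and 11.2 in round spermatids. Both places were thus private to K8 only in spermatocytes.

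The leading private H4K5bu islands of spermatocytes also met both residues in round spermatids, unlike most private H4K5bu islands. At chr8:26048801-26056000 H4K5bu had 224 ChIP reads and a fold of 3.32 (2.56 to 4.35) in spermatocytes, and round spermatids had 4.99 for H4K5bu and 3.39 for H4K8bu. The island with the most reads, chr11:3103001-3107000, had 240 ChIP reads and a fold of 4.83, and in round spermatids the folds there were 5.54 for H4K5bu and 3.55 for H4K8bu. The H4K5bu island itself held 59 input reads over 4000 bp in spermatocytes. It overlaps an H4K5ac island of spermatocytes with 23225 input reads and a fold of 1.13. Whether the dense input of that H4K5ac island played a part in the H4K5bu call was not tested.

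In round spermatids the leading private islands of the residues differed in the other stage. For H4K8bu, chr2:116797801-116804200 had 179 ChIP reads and a fold of 3.01 (2.32 to 3.91), with H4K8bu at 2.32 in spermatocytes and no H4K5bu island in either stage. The other, chr7:71229401-71236600, had 172 reads and a fold of 3.81 (2.87 to 5.11) and lay in no island of the other 7 lists. For H4K5bu, chr15:31210001-31214800 had 214 reads and a fold of 3.47 (2.70 to 4.48), and in spermatocytes both residues were called there at 5.96 for H4K8bu and 6.23 for H4K5bu. At chr5:128110201-128116200 the H4K5bu fold was 3.66 in round spermatids, and the spermatocyte folds were 5.71 for H4K8bu and 5.61 for H4K5bu. These H4K5bu islands lay where both marks had been stronger in spermatocytes.

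Where both residues were called, their islands covered much the same stretch, with small and opposite differences in width between stages. Overlapping islands of a stage were merged into regions, of which 32125 in spermatocytes and 30831 in round spermatids held both residues. In 92.9% and 92.3% of these, a single H4K8bu island met a single H4K5bu island, giving 29829 and 28449 1-to-1 pairs. A single H4K8bu island spanned several H4K5bu islands in 4.17% and 4.88% of regions, and the reverse held in 2.34% and 2.03%.

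Edges lie on a grid of 200 bp. The starts were the same in 19.4% of spermatocyte pairs and 17.8% of round spermatid pairs, the ends in 19.5% and 17.4%, and both in 3.94% (1175 pairs) and 3.23% (918 pairs). The median shift was 400 bp at either end in both stages, and both edges agreed within 1000 bp in 68.3% and 65.3% of pairs.

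The H4K5bu island was more often the wider in spermatocytes and the H4K8bu island in round spermatids. H4K8bu was wider in 38.4% (37.9 to 39.0%) and H4K5bu in 52.8% of spermatocyte pairs, and H4K8bu in 54.7% and H4K5bu in 37.2% of round spermatid pairs. The median widths were 3000 bp for H4K8bu and 3200 bp for H4K5bu in spermatocytes, and 4000 bp and 3600 bp in round spermatids. H4K5bu reached past H4K8bu at both ends in 22.4% of spermatocyte pairs and 12.5% of round spermatid pairs, and H4K8bu past H4K5bu in 14.1% and 23.2%. Among stronger islands of round spermatids H4K8bu was the wider less often, in 50.5% of pairs with at least 100 ChIP reads in each list and in 47.7% among the 50% of islands with the higher fold. In spermatocytes those shares were 36.7% and 33.7%.

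The residue ratio, H4K8bu over H4K5bu, leaned to K8 in spermatocytes and was close to even in round spermatids. It was taken as the log2 of the H4K8bu fold over the H4K5bu fold in each region, and its median was 0.22 (0.22 to 0.23) in spermatocytes, a ratio of 1.17, with 75.3% of 32125 regions above an even ratio. The median in round spermatids was -0.08 (-0.08 to -0.07), a ratio of 0.949, with 39.4% of 30831 regions above. The median folds behind these were 4.94 for H4K8bu and 4.26 for H4K5bu in spermatocytes, and 3.58 and 3.77 in round spermatids. The middle 90% of regions lay between -0.36 and 0.84 in spermatocytes and between -0.60 and 0.41 in round spermatids, so the distributions overlap widely. Each residue had its own antibody, and no value here calibrates one antibody against the other. An even ratio therefore means equal fold and not equal butyrylation of the residues.

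Other readings of the ratio gave values nearer to even. One is the read ratio, the ChIP reads of H4K8bu over those of H4K5bu scaled for library size with no input, and its median was 0.12 in spermatocytes (62.9% of regions above even) and 0.014 in round spermatids (51.7%). The other keeps pairs with the same start and end, which hold the same input reads. Their median was 0.16 (0.14 to 0.18) over 1175 pairs in spermatocytes and -0.0087 (-0.033 to 0.0082) over 918 pairs in round spermatids. All 3 readings were above 0 in spermatocytes. In round spermatids the read ratio was of the other sign, and the interval of the same-edge pairs held 0.

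**Figure D3:**
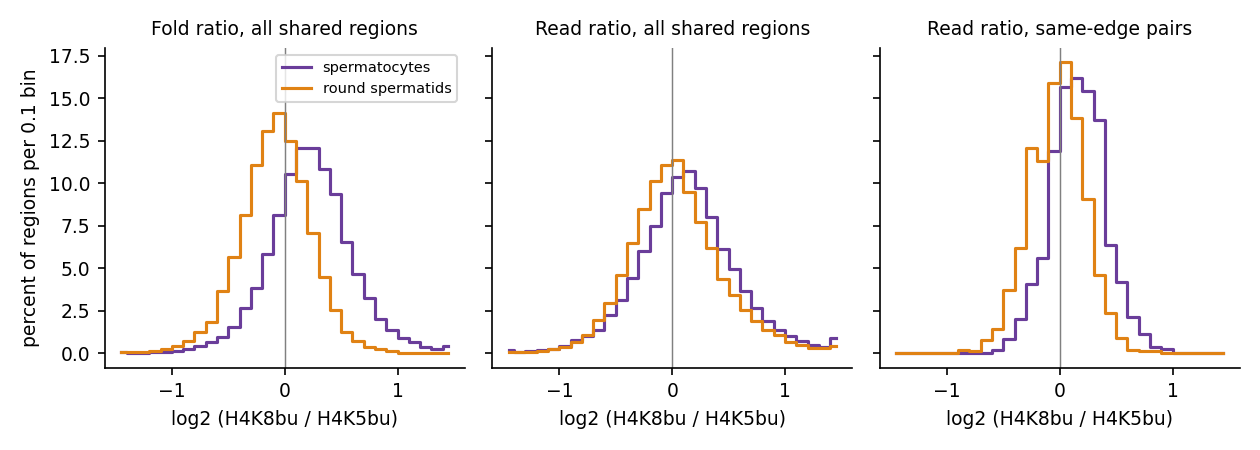
Percent of regions per bin of 0.1 (vertical axis) by log2 ratio of H4K8bu to H4K5bu (horizontal axis) in each stage, from left to right for folds, for scaled ChIP reads and for same-edge pairs; the end bins also hold values beyond them. The spermatocyte curve lies to the right, by the most for folds (medians 0.22 and -0.08), and the curves overlap in all panels.

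The fold ratio and the read ratio moved in opposite ways with island width. In spermatocytes the median fold ratio was 0.05 in 11460 pairs with H4K8bu wider, 0.16 in 2617 pairs of equal width and 0.36 in 15752 pairs with H4K5bu wider. The read ratio in the same pairs was 0.43, 0.16 and -0.10. For round spermatids the fold ratio was -0.17, -0.01 and 0.07 and the read ratio 0.23, -0.0084 and -0.24. At equal width the medians of the measures lay within each other's intervals in both stages. Across pairs the log2 width ratio correlated with the fold ratio at r = -0.54 in spermatocytes and -0.49 in round spermatids, and with the read ratio at 0.83 in both, a description over pairs that share their islands, libraries and input.

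**Figure D4:**
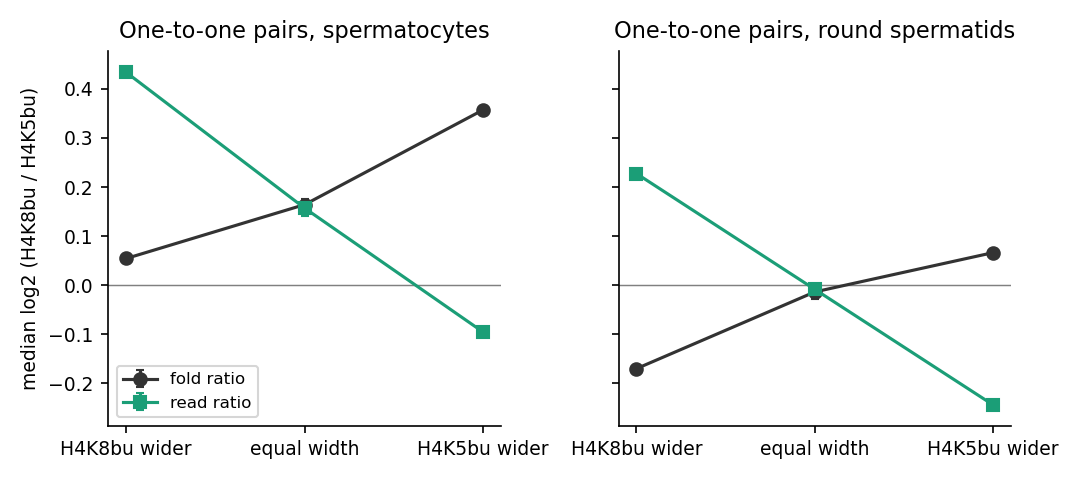
Median log2 ratio of H4K8bu to H4K5bu (vertical axis) in 1-to-1 pairs with H4K8bu wider, of equal width and with H4K5bu wider (horizontal axis), for folds (circles) and scaled ChIP reads (squares), with 95% intervals that are mostly hidden by the symbols. The lines come together at equal width, near 0.16 in spermatocytes and near 0 in round spermatids.

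Few regions stood far from the median. A ratio of 2-fold or more from the median was reached above it by 296 spermatocyte regions (0.921% of those compared) and below it by 232 (0.722%), and in round spermatids above it by 55 (0.178%) and below it by 127 (0.412%). Among regions whose H4K8bu and H4K5bu islands covered each other by at least 80%, the counts were 3 and 5 of 12839 in spermatocytes and 0 and 0 of 13583 in round spermatids, and no same-edge pair reached that distance. With the read ratio the percentages were 2.25 above and 1.44 below in spermatocytes and 2.08 above and 0.62 below in round spermatids. Large fold ratios were thus found almost only where the islands differed in extent.

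The most extreme regions show this. With 200 ChIP reads or more in each list, chr5:145726801-145730600 had the highest ratio in spermatocytes, with H4K8bu at 209 ChIP and 7 input reads over 1600 bp, a fold of 35.4, and H4K5bu at 212 ChIP and 36 input reads over 3800 bp, a fold of 6.99. Its scaled read ratio was 0.984 (0.809 to 1.20), that is, even. The lowest, chr16:74485201-74488600, had 221 H4K8bu reads over 3200 bp at a fold of 4.36 and 229 H4K5bu reads over 1800 bp at 10.1. In round spermatids the highest, chr10:57668801-57691400, had a fold of 4.42 for H4K8bu over 13400 bp and 1.58 for H4K5bu over 22600 bp. The lowest there, chr3:96395401-96401000, had 4.09 over 5600 bp and 10.00 over 2400 bp. In 12 of 12 such regions the higher fold belonged to the narrower island. They were chosen by fold ratio, which fell as the width ratio rose over all pairs. The count is therefore a description and not a separate result.

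Same-edge pairs hold the same stretch and the same input reads for both residues. Those named here were chosen after their values were seen, as the extremes among those with at least 100 ChIP reads in each list. In spermatocytes chr17:56389601-56393200 had 261 H4K8bu and 137 H4K5bu reads over the same 3600 bp and 41 input reads, folds of 7.54 and 3.97 and a read ratio of 1.90 (1.54 to 2.36). At the other end chr5:44523601-44525600 had 122 and 166 reads, a ratio of 0.733 (0.576 to 0.932), and next to it chr2:180377601-180383400 had 355 and 476 reads, a ratio of 0.744 (0.647 to 0.856). In round spermatids chr7:19506001-19510600 had 195 and 139 reads, a ratio of 1.45 (1.16 to 1.82), and chr1:165858201-165862400 had 170 and 288 reads, a ratio of 0.612 (0.503 to 0.742). These extremes lay on either side of even in both stages, with single-pair intervals that did not reach 1. The intervals are not corrected for the choice of extremes. They therefore cannot decide whether single places depart from even.

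The spread over same-edge pairs was wider than read counting gives. In 644 such pairs of spermatocytes with 100 or more reads for each residue the SD of the log2 ratio was 0.21 against a counting error of 0.15, and 16.9% lay outside the 95% counting interval around the median. In 496 pairs of round spermatids the SD was 0.22 against 0.15, and 23.8% lay beyond. Without a second library, variation between places and variation between preparations cannot be told apart.

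The ratio changed with width, in opposite directions in the stages, and in round spermatids its median crossed even. For regions up to 2 kb, 2 to 4, 4 to 8, 8 to 16 and above 16 kb the median fold ratio in spermatocytes was 0.14, 0.21, 0.25, 0.25 and 0.21. In round spermatids it was 0.05, -0.05, -0.11, -0.09 and -0.11. From regions up to 2 kb to those above 16 kb the median read ratio went from 0.06 to 0.19 in spermatocytes. In round spermatids it went from 0.16 to -0.10. Over the chromosomes the median fold ratio ran from 0.20 (chromosome 19) to 0.25 (chromosome 7) in spermatocytes and from -0.11 (chromosome 11) to -0.06 (chromosome 4) in round spermatids. On folds every chromosome was above 0 in spermatocytes and below 0 in round spermatids.

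The ratio also went with the acetyl marks called in the region, in opposite directions in the stages when read from the ChIP reads. In spermatocytes the median fold ratio was 0.23 in 28555 regions with both H4K5ac and H4K8ac, 0.13 in 2937 with H4K5ac alone and 0.05 in 439 with neither, and the read ratio was 0.13, 0.10 and -0.07. In round spermatids the fold ratio was -0.08 in 23494 regions with both, -0.04 in 6351 with H4K5ac alone and -0.05 in 817 with neither, and the read ratio was -0.03, 0.20 and 0.31. Same-edge pairs of spermatocytes gave 0.18, 0.08 and 0.01, and those of round spermatids -0.04, 0.03 and 0.13. Those with neither acetyl mark numbered only 22 and 25, with intervals of -0.08 to 0.18 and -0.0042 to 0.24.

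From spermatocytes to round spermatids the residue ratio went down in most regions, and its median did so on each of the 19 chromosomes. The 4 butyryl lists merged into 55041 regions, of which 18769 (34.1%) held all 4 marks, 9390 (17.1%) both residues in spermatocytes only and 7891 (14.3%) both in round spermatids only. In 3448 (6.26%) H4K8bu alone in spermatocytes was followed by both residues, and in 238 H4K5bu alone was followed by both. In 2389 (4.34%) both were followed by H4K5bu alone, and in 429 by H4K8bu alone. Where a region was partly butyrylated, H4K8bu was thus more often the mark called in spermatocytes and H4K5bu the mark called in round spermatids. The H4K8bu list was also the longer in spermatocytes and the H4K5bu list in round spermatids.

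At the 18769 regions with all 4, H4K8bu had a median fold of 5.44 in spermatocytes and 4.09 in round spermatids. For H4K5bu these were 4.67 and 4.52. The median log2 ratio was 0.25 in spermatocytes and -0.12 in round spermatids, a median difference of -0.37 (-0.37 to -0.36), with 83.2% of regions lower in round spermatids. The H4K8bu fold differed by a median of -0.42 and the H4K5bu fold by -0.04. In 53.0% of regions the ratio was above even in spermatocytes and below it in round spermatids, against 5.42% for the reverse. Another 27.0% were above even in both stages and 14.6% below in both.

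The difference was of like size however the islands were matched. It was -0.32 on the read ratio (lower in 78.8%), -0.38 in 13943 regions with at least 100 ChIP reads in each list (85.9%), and -0.36 in 3860 regions with 80% reciprocal overlap in each stage (90.2%). In the 21 regions with the same edges within each stage it was -0.36 (-0.43 to -0.27), and lower in 95.2%. Over the 19 chromosomes the median ran from -0.40 to -0.34 on folds and from -0.35 to -0.30 on reads. With 1 library per mark and stage, a difference between the cells and a difference between the precipitations cannot be told apart.

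By width the fold difference was -0.37 up to 4 kb, -0.40 from 4 to 8 kb, -0.36 from 8 to 16 kb and -0.32 above, while the read difference was -0.20, -0.30, -0.38 and -0.36. On reads the shift was therefore smallest in narrow regions, and on folds it was not. Regions 2-fold or more from the median difference numbered 209 above it (1.11%) and 459 below it (2.45%), and on reads 3.11% lay above and 1.98% below. With 80% reciprocal overlap 2 lay above and 1 below of 3860.

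How far ratios of single regions carried over from stage to stage depended on the measure and on the match of the islands. Across the 18769 regions the fold ratio of the stages correlated at r = 0.05, and across the 3860 with 80% reciprocal overlap at 0.31. The read ratio gave 0.31 and 0.48. The stages have no library in common, and these are descriptions over regions. In the reciprocal regions the SD of the difference was 0.24 against a counting error of 0.19, and 14.2% lay outside the 95% counting interval around the median. With a counting error of that size, a low correlation does not show that places failed to keep their ratio.

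The regions with the most extreme differences were again those with unequal islands. The lowest, chr12:112123201-112136000, went from folds of 14.7 for H4K8bu over 4600 bp and 4.03 for H4K5bu over 11200 bp in spermatocytes to 4.41 over 8400 bp and 6.42 over 5400 bp in round spermatids, a difference of -2.41 on folds and 0.34 on reads. The highest, chr13:58366201-58375200, went from 5.59 and 8.48 to 7.13 and 4.07, a difference of 1.41 on folds and -1.13 on reads. In all 8 such regions the read difference had the other sign. Its interval held 0 at chr17:13150001-13155400, chr17:79312201-79320600, chr4:32700001-32708200 and chr4:32151401-32159800. The regions were chosen by their fold difference, so the opposite signs are a description and not a separate result. Across all 18769 regions the change in width ratio correlated with the fold difference at r = -0.67 and with the read difference at 0.85, again with shared islands and input.

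The regions with the most reads had differences below 0 on both measures, and of larger size than the medians over all regions (-0.37 on folds and -0.32 on reads). At chr17:27423801-27489200 the ChIP reads were 8911 for H4K8bu and 6330 for H4K5bu in spermatocytes and 3796 and 4362 in round spermatids. The folds were 9.95 and 7.29, then 4.02 and 4.44, a difference of -0.59 (-0.77 to -0.41) on folds and -0.64 (-0.72 to -0.56) on reads. At chr9:67537801-67607600 the folds were 11.8 and 8.75, then 4.79 and 5.43, a difference of -0.62 on folds and -0.50 on reads. At chr12:99617201-99693400 they were 9.61 and 7.51, then 5.21 and 5.77, a difference of -0.50 on folds and -0.62 on reads. In each of these the islands of the residues had nearly the same width within a stage and both folds were lower in round spermatids, H4K8bu by more.

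**Figure D5:**
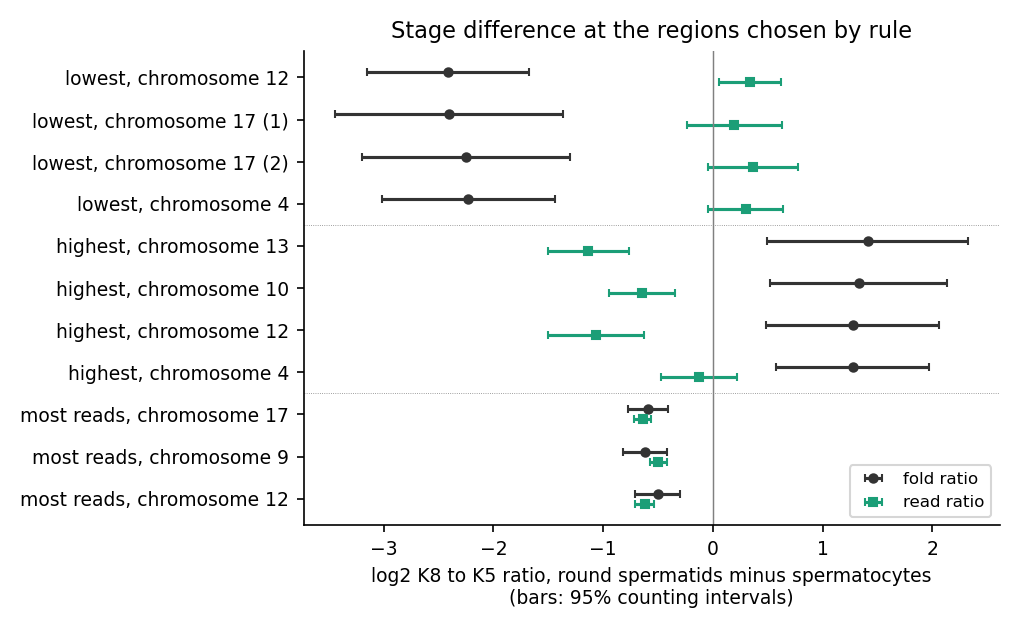
The log2 ratio of H4K8bu to H4K5bu in round spermatids minus that in spermatocytes (horizontal axis) at the 4 lowest, the 4 highest and the 3 most deeply read regions (vertical axis), for folds (circles) and scaled ChIP reads (squares) with 95% counting intervals. Circles and squares lie on opposite sides of 0 in the 8 extreme regions, though some of the intervals for reads hold 0. They lie together below 0 in the 3 regions with the most reads. The intervals for folds take the input reads of the residues as independent, though they come from the same input library in each stage.

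Among regions with 80% reciprocal overlap, chosen here after their values were seen, the read difference was lowest at chr6:86660001-86674600. H4K8bu and H4K5bu had 288 and 176 reads there in spermatocytes and 521 and 778 in round spermatids, a difference of -1.23 (-1.55 to -0.92). It was highest at chr14:105031001-105034000, with 133 and 137 reads in spermatocytes and 185 and 133 in round spermatids, a difference of 0.57 (0.10 to 1.05). The first of these changed in width as well, from 6000 and 5000 bp to 12600 and 14600 bp.

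Acetylation at the same residues shifted the same way but by less. At 15804 regions that held all 4 butyryl and all 4 acetyl lists, the median log2 ratio of H4K8ac to H4K5ac was -0.72 in spermatocytes and -0.87 in round spermatids, a median difference of -0.16, lower in 64.5% of regions. The butyryl difference at these regions was -0.37. Across the regions the acetyl and butyryl differences correlated at r = -0.08, a description over regions that share an input library in each stage. No read ratio or reciprocal-overlap reading of the acetyl ratio is given here. The H4K8ac and H4K5ac lists held 35370 and 43505 islands in spermatocytes and 27526 and 36549 in round spermatids. With 1 library per mark and stage the acetyl difference was not tested.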

How the data were processed

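The deposited files are SICER island lists, 1 for each of 8 precipitated libraries; the 2 input libraries have no list of their own. Per the submitters' processing notes the tools were CASAVA 1.8.2, Bowtie2 2.2.5, deepTools 1.5.11 and SICER, on mm9. Not given in the sources used here are the SICER version, its settings and the handling of duplicate reads. The authors deposited counts of ChIP and input reads per island, a p-value, a fold (ratio) and a q-value. The deposited ratio equals ChIP over input reads times a constant per list, 1.18 and 1.19 for H4K8bu and H4K5bu in spermatocytes and 1.53 and 1.47 in round spermatids. The exceptions among butyryl lists are 2 H4K8bu islands of spermatocytes with 0 input reads; in region folds 0 input reads were counted as 1. Deposited q-values were below 0.01, so the lists hold no weaker islands, and the deposited p-value was not used.

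Islands on chromosomes 1 to 19 were compared by overlap of at least 1 bp and merged into regions in Python 3.11.15 with numpy 2.4.6, pandas 2.3.3 and scipy 1.17.1; figures used matplotlib 3.10.9. Region folds are summed ChIP over summed input reads times the constant. Calls are ratios 2-fold or more from the median of all regions, since 1 library per mark and stage allows no test. Intervals are exact Clopper-Pearson for shares, exact conditional binomial for folds and read ratios, order statistics for medians, and a normal approximation from the counts for stage differences. For stage differences on folds the approximation takes the input reads of the residues as independent. They come from 1 input library per stage and overlapping islands, so those intervals are approximate. Intervals for folds, read ratios and stage differences cover read counting only, and reads amplified by PCR, with no molecular identifiers, are not independent. Intervals for shares and medians take the islands or regions of a library as independent. No interval covers variation between preparations. The scripts were tested on simulated data.

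Named regions were, outside chromosome 18, the 2 private islands per list with the most reads at a fold of at least 3; the 3 shared regions per direction with the most extreme ratio and at least 200 reads in each list; the 4 per direction with the most extreme stage difference and at least 100 reads in each list; and the 3 with the most reads. The members and lists were chosen with earlier results of these data known. Alternatives were other overlap rules, lists of equal length, the upper 50% by fold, at least 100 reads, 80% reciprocal overlap, scaled reads in place of fold and the 10% densest input left out. Same-edge pairs, matched private islands and the alternatives for private islands and pair widths were added after the data were seen.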

Additional observations from a re-analysis of the deposited data

Results flagged for a closer look

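The residue ratio stood on opposite sides of even in the stages: the median log2 H4K8bu to H4K5bu fold ratio at shared regions was 0.22 in spermatocytes and -0.076 in round spermatids. On scaled ChIP reads the round spermatid median was 0.014, on the same side as spermatocytes, and in same-edge pairs its interval held 0 (-0.033 to 0.0082). With 1 library per mark and stage the difference between stages was not tested.

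Reads on the mitochondrial genome, which has no histones and is not part of the comparison, were called as islands in 3 of the 4 butyryl lists. The fold was 1.18 (1.07 to 1.30) for H4K8bu and 1.16 (1.06 to 1.28) for H4K5bu in spermatocytes, over 881 input reads for H4K8bu. In round spermatids H4K5bu had islands at 1.42 (1.16 to 1.73) and 1.27 (1.02 to 1.59), and H4K8bu had none.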

How the results depend on the processing

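The depth, the list lengths and the single library per group limit these values; no alternative could leave out a replicate. No paired analysis was possible because each mark and stage has 1 library and the labels carry no replicate numbers. Every alternative kept the direction of the median ratio in spermatocytes and of the median stage difference, and 1 turned the median ratio in round spermatids, which was 0.014 on scaled ChIP reads. Of the alternative values, 86 moved by more than their interval or by more than 1.5 times, and 19 did not. The cause was not tested.

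Shares of shared islands are given in the order H4K8bu and H4K5bu in spermatocytes, then H4K8bu and H4K5bu in round spermatids. They were 78.1, 85.3, 88.3 and 79.8% with at least 50% of the island covered, and 79.2, 87.4, 86.2 and 73.6% among the 50% of islands with the higher fold. With lists of equal length they were 85.2, 87.1, 85.1 and 86.6%, and with at least 100 ChIP reads in both lists 81.9, 90.7, 87.3 and 90.1%. Within 1000 bp they were 81.9, 90.3 and 82.5%, leaving out H4K8bu in round spermatids, which did not move.

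The median log2 ratio in spermatocytes was 0.12 on scaled reads, 0.25 with at least 100 reads, 0.18 with 80% reciprocal overlap, 0.23 without the 10% densest input and 0.16 in same-edge pairs. In round spermatids it was -0.092 with at least 100 reads, -0.057 with reciprocal overlap, -0.0896 in the upper 50%, -0.085 without the densest input and -0.0087 in same-edge pairs. The median stage difference was -0.32 on scaled reads, -0.38 with at least 100 reads, -0.36 with reciprocal overlap, -0.40 in the upper 50% and -0.38 without the densest input.

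Counts of regions 2-fold or more from the median are given above and then below it. In spermatocytes they were 723 and 461 on scaled reads, 160 and 102 with at least 100 reads, 3 and 5 with reciprocal overlap, 128 and 78 in the upper 50% and 0 and 0 in same-edge pairs. In round spermatids they were 640 and 191, 19 and 43, 0 and 0, 10 and 31, and 0 and 0 under the same settings. For the stage difference they were 584 above on scaled reads, 95 and 255 with at least 100 reads, 2 and 1 with reciprocal overlap, 103 and 159 in the upper 50% and 0 and 0 in same-edge pairs.

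The share of private islands with H4K5ac, in the order used for shared islands, was 81.5, 65.3, 77.4 and 46.3% with lists of equal length, and 63.4, 41.4, 60.1 and 38.2% at like fold and width. Among private islands with at least 100 reads it was 87.3% for H4K8bu in spermatocytes, 72.5% for H4K8bu in round spermatids and 55.8% for H4K5bu there. The share with neither butyryl mark in the other stage was 49.0, 67.4 and 49.8% with lists of equal length for H4K8bu and H4K5bu in spermatocytes and H4K5bu in round spermatids. With at least 100 reads it was 16.1, 70.6, 56.5 and 49.8%, and for H4K5bu in spermatocytes it was 83.0% when private islands also lay more than 1000 bp from the other list. H4K8bu was the wider island in 36.7% of spermatocyte and 50.5% of round spermatid pairs with at least 100 reads, and in 33.7% and 47.7% in the upper 50%.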

Other observations

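On the X chromosome, which the comparison left out and which is silenced in meiosis, the lists were shorter in spermatocytes than in round spermatids. Spermatocytes had 582 H4K8bu islands, 77.8% shared, and 476 H4K5bu islands, 95.6% shared. Round spermatids had 965 H4K8bu islands, 87.4% shared, and 1092 H4K5bu islands, 79.1% shared. The private islands thus lay mostly with K8 in spermatocytes and with K5 in round spermatids, as on the other chromosomes. The median log2 fold ratio was 0.16 over 444 regions in spermatocytes and 0.017 over 828 regions in round spermatids, and the read ratio was 0.10 and 0.22.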
